A study of Mus musculus with 4 samples.

Results

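The genes that differed between aortas of disrupting peptide mice (DPM) and wild-type (WT) mice were sought across estradiol (E2) and vehicle treatment together. For each gene the mean of the 2 DPM group levels minus the mean of the 2 WT group levels gave the average genotype difference, in log2 units. Genes were then ranked by the smaller of their 2 within-treatment differences of the same sign. A high rank thus needs a large difference in the same direction with E2 and with vehicle, though the 2 sizes may be unlike. The array held 22690 probe sets for 12394 gene symbols, and the 5152 genes (41.6%) that reached a log2 level of 5 in any group were kept and ranked. All 4 samples of the series entered. Of the 5152 genes, 1335 (25.9%) were higher in DPM within both treatments, 1309 (25.4%) were lower within both, and 2508 (48.7%) differed in opposite directions or had a difference of 0 within a treatment.

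Total RNA was measured on Affymetrix mouse 430.A 2.0 arrays. DPM mice carry a transgene that expresses residues 176 to 253 of estrogen receptor alpha from the CMV promoter, a viral promoter active in many cell types. Per the labels this peptide separates the receptor from striatin. The 4 groups were DPM with E2, DPM with vehicle, WT with E2 and WT with vehicle, all C57BL/6. The females of every group were 12 to 14 weeks old and without ovaries for 1 week. Their aortas were exposed outside the body to 10 nM E2 or to ethanol alone for 4 hours, and RNA of 4 aortas was pooled per sample. Sample titles count 2 replicates per group with E2 and 3 per group with vehicle, but 1 level per group was available here. Per-array values were not analysed here, and nothing says whether replicates were separate pools.

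Estrogen receptor alpha acts in the nucleus as a transcription factor and at the cell membrane as an activator of kinases. The membrane route needs striatin, a scaffold protein that holds the receptor near caveolin and signalling enzymes in endothelial and smooth muscle cells. The transgene was present before the aortas were taken, so a comparison of DPM with WT is not limited to the 4 hours in culture.

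The smooth muscle contractile list checked the tissue: 21 of its 22 genes on the array reached the minimum, with mean log2 levels of 10.05 and 10.15 in DPM with E2 and with vehicle, against 10.13 and 10.21 in WT with E2 and with vehicle. Of 24 endothelial genes, 20 reached it. Esr1 lay at 2.31 in both DPM groups, against 2.31 with E2 and 2.33 with vehicle in WT. Whether its probe set lies in the stretch carried by the transgene was not analysed here, so Esr1 does not check the labels. Esr2 stood at 2.29, the lowest value of the array, in all 4 groups. Strn, the striatin gene, stood at 3.11 with E2 and 3.33 with vehicle in DPM, against 3.20 with E2 and 3.09 with vehicle in WT, below the minimum. Cav1, which encodes caveolin 1, averaged -0.10 ± 0.10, and Nos3, the endothelial nitric oxide synthase gene, averaged -0.27 ± 0.16. Values after ± are the standard error (SE), worked back from the folds and p in the authors' deposited table as given under processing. Neither Cav1 nor Nos3 had an unadjusted p under 0.05 by the limma-based test.

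Few genes passed a fold threshold between the genotypes in the same direction in both treatments. At 1.5-fold within both treatments in the same direction, 16 genes (0.311% of 5152) were higher in DPM and 6 (0.116%) were lower, 22 (0.427%) in all. Another 5 genes (0.097%), Laptm5, Ldb1, Ltbp4, Nr1d1 and Sfrp1, were past 1.5-fold in both treatments in opposite directions. Within the E2 groups 60 genes (1.16%) were 1.5-fold higher in DPM and 52 (1.01%) lower. Within the vehicle groups 94 (1.82%) were higher and 73 (1.42%) lower. The 16 higher genes were thus 26.7% of those with E2 and 17.0% of those with vehicle, and the 6 lower genes were 11.5% and 8.22%. Over all 5152 genes the differences within the 2 treatments had a Pearson r of 0.17 and a Spearman rho of 0.09, a description across genes of the same arrays. Without the members of the cardiac and airway lists, 5136 genes gave an r of 0.10.

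**Figure D1:**
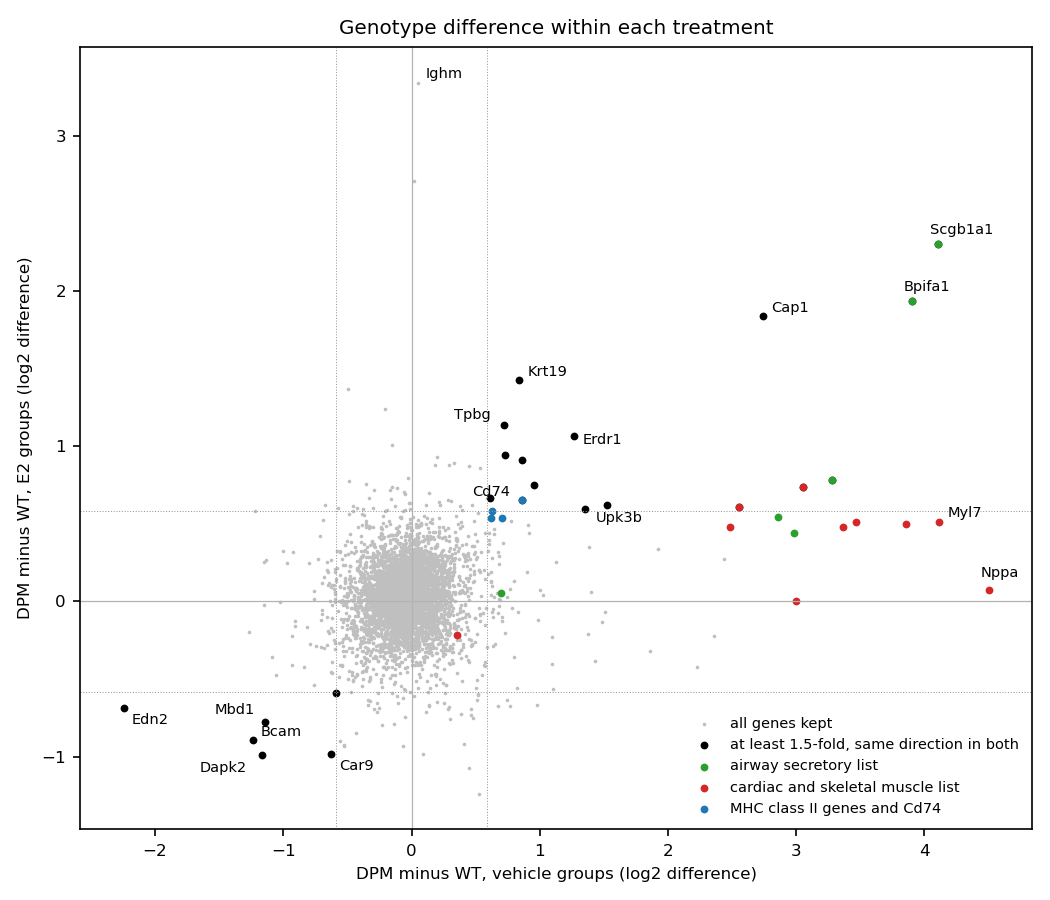
Each point is 1 of the 5152 genes, with the DPM minus WT log2 difference in the E2 groups on the vertical axis and that in the vehicle groups on the horizontal axis. Dotted lines mark 1.5-fold. Genes in the upper right and lower left corners make up the 22 that passed it in both treatments, while cardiac genes lie far to the right with small differences in the E2 groups.

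On average over both treatments, 45 genes (0.873%) were at least 1.5-fold higher in DPM and 17 (0.33%) at least 1.5-fold lower. No gene had an adjusted p under 0.05 by the limma-based test with Benjamini-Hochberg adjustment over the 5152 genes. An unadjusted p under 0.05 was found for 298 genes (5.78%), of which 173 (3.36%) were higher and 125 (2.43%) lower. For 70 genes (1.36%) it was under 0.01, with 40 (0.776%) higher and 30 (0.582%) lower. Of those 70, 62 had the same sign in both treatments, 35 higher and 27 lower, against 25.9% and 25.4% of all genes. A choice by small p of the average favours genes with the same sign in both, so this count tests nothing. The median SE of the average difference was 0.13, so the median gene needed 1.23-fold to reach an unadjusted p of 0.05. The words higher and lower therefore give the direction of measured levels, with their error, and no established change.

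Most of the 22 genes at 1.5-fold within both treatments were weakly expressed. Of the 16 higher ones, 9 reached the level minimum in DPM alone, and of the 6 lower ones 2 reached it in WT alone, so those genes were kept through the group in which they are high. All 4 groups were at or above the minimum for 8 of the 22. An unadjusted p under 0.05 for the average difference was found for 12 of the 22, against 5.78% of all genes. Because the same differences ranked them, this count describes the 22 and tests nothing. The last gene inside the threshold among the higher ones was Upk3b, with a smaller difference of 0.59, and the first outside was H2-Eb1, with 0.58. Among the lower ones P2ry6 was the last inside, at -0.59, and Zfp395 the first outside, at -0.56.

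**Figure D2:**
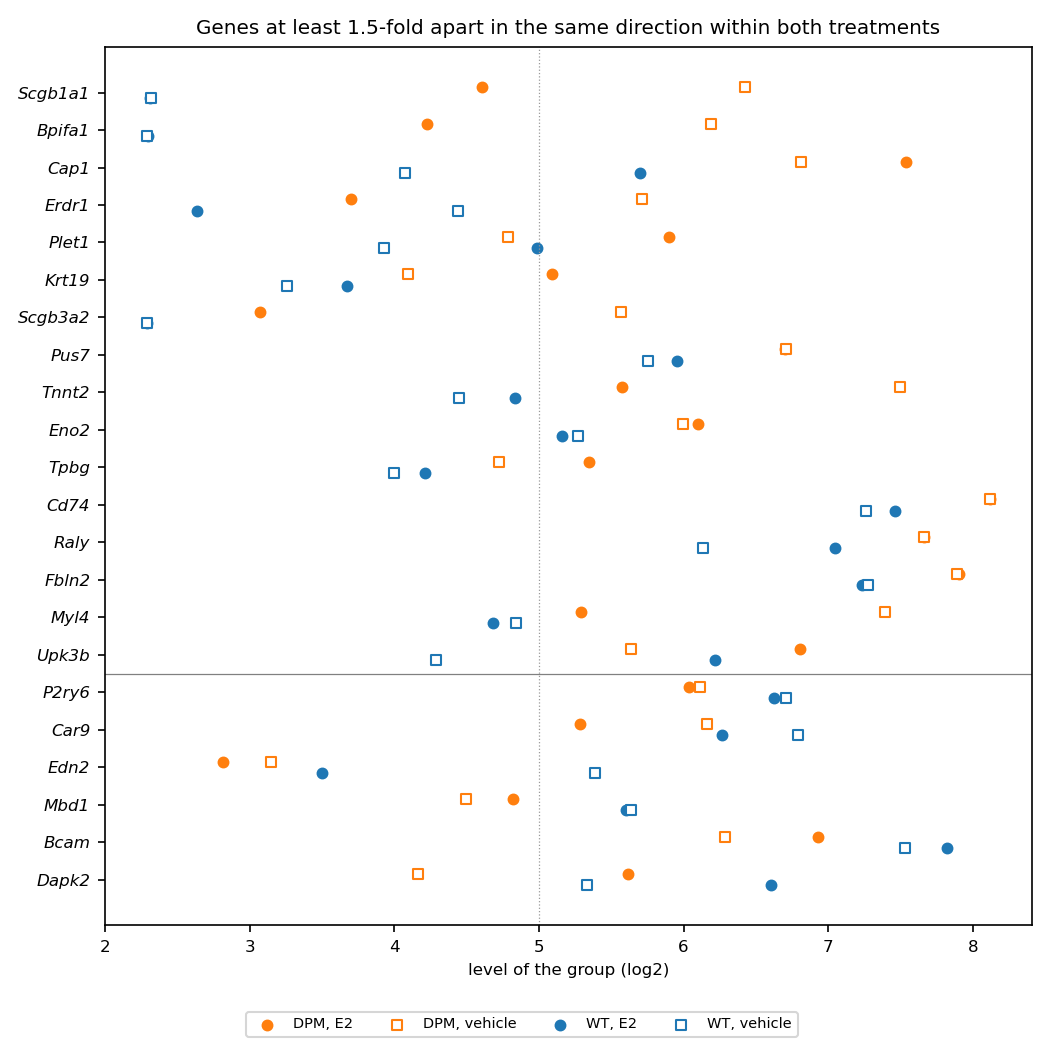
Log2 levels of the 22 genes at 1.5-fold within both treatments, with 1 point per group: DPM in orange and WT in blue, circles for E2 and squares for vehicle. The dotted line marks the level minimum of 5. In the upper 16 genes each DPM point lies right of the WT point of the same treatment, and in the lower 6 it lies left.

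Cd74 and 3 major histocompatibility complex (MHC) class II genes, picked after a look at their values, had higher levels in DPM under both treatments. MHC class II molecules, built from the products of H2-Aa, H2-Ab1 and H2-Eb1, present peptides to helper T cells, and Cd74 encodes the invariant chain that escorts them through the cell. In the vessel wall macrophages and dendritic cells are their usual source. Class II genes are known for an upstream control module whose Y box, a reversed CCAAT element, is bound by the factor NF-Y. H2-Aa and H2-Eb1 are shown because they hold one spelling of that element: the 130 bases before each RefSeq start (build GRCm38.p6), 5′ to 3′ on the strand of the gene, with CTGATTGG in capitals. H2-Aa lies at chr17:34287824-34287953 on the minus strand and its match begins 51 bases before the start, while H2-Eb1 lies at chr17:34305737-34305866 on the plus strand and its match begins 62 bases before the start.
H2-Aa: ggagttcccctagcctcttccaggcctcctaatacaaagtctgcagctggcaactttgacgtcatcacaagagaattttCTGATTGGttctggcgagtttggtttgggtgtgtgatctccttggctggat
H2-Eb1: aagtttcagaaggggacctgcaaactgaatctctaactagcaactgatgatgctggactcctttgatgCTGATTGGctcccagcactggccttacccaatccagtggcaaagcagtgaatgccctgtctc
On both strands, 3.83% of 32851 RefSeq mouse promoters hold these letters within 250 bases before the start, and the letters contain the reversed CCAAT. The windows of H2-DMa, H2-DMb1 and H2-DMb2 were searched too and do not hold them, and H2-Ab1 was not searched. A match is a description of the sequence and not a measured site.

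Cd74 stood at 8.12 with E2 and 8.12 with vehicle in DPM, against 7.46 with E2 and 7.26 with vehicle in WT. Both DPM groups lay above both WT groups, and the average difference was 0.76 ± 0.18. H2-Aa stood at 7.20 with E2 and 6.93 with vehicle in DPM, against 6.66 with E2 and 6.31 with vehicle in WT (average 0.58 ± 0.14). H2-Eb1 stood at 6.61 with E2 and 6.29 with vehicle in DPM, against 6.03 with E2 and 5.66 with vehicle in WT (0.61 ± 0.21). H2-Ab1 stood at 6.83 with E2 and 6.61 with vehicle in DPM, against 6.29 with E2 and 5.90 with vehicle in WT (0.62 ± 0.22). In each of these 4 genes both DPM levels lay above both WT levels, as for 15.4% of all genes, and each had an unadjusted p under 0.05. The 3 class II genes are neighbours on chromosome 17. They were the 1 run of adjacent genes among the 44 higher genes with a known position at 1.3-fold in both treatments. The 38 lower genes held no such run.

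Other genes of macrophages and leukocytes did not all follow. Of 23 listed genes on the array 16 reached the minimum, 14 of them higher on average, against 50.1% of all genes, and 8 higher in both treatments, against 25.9% of all genes. Of the 16, 3 reached the minimum in DPM alone; of the other 13, 11 were higher on average and 7 in both treatments. The median of the 16 was 0.48 with E2, 0.16 with vehicle, where 10 were higher and 6 lower, and 0.25 on average, against 0.00 for all genes. Among them 5 (31.2%, against 3.36% of all genes in that direction) had an unadjusted p under 0.05: C1qb, H2-Aa, H2-Eb1, H2-Ab1 and Cd74. C1qb, a complement gene, averaged 0.27 ± 0.11 and lost that p when the groups were centred. Csf1r, which encodes a macrophage growth factor receptor, averaged -0.02 ± 0.10. Cd68, a lysosomal macrophage marker, averaged 0.04 ± 0.14. Cd53, a leukocyte tetraspanin, stood at 6.44 with E2 and 5.41 with vehicle in DPM, against 5.20 with E2 and 5.62 with vehicle in WT, so it was high in DPM with E2 alone. The summed linear levels of the 16 genes were 1716 and 1394 in DPM with E2 and vehicle, against 1253 and 1133 in WT with E2 and vehicle. In pooled tissue more cells of a type and more RNA per cell cannot be told apart. Of the MHC class I list, 5 genes reached the minimum and all 5 were higher on average, between 0.05 and 0.27. Only 3 of the 5 were higher in both treatments, with medians of 0.01 with E2 and 0.20 with vehicle, and none had an unadjusted p under 0.05 by limma.

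Of the 22 genes, Eno2 had the largest average difference relative to its error, and all 4 of its levels were above the minimum. It encodes the gamma isoform of the glycolytic enzyme enolase, best known from neurons. Eno2 stood at 6.10 with E2 and 6.00 with vehicle in DPM, against 5.16 with E2 and 5.27 with vehicle in WT, an average of 0.83 ± 0.12 (unadjusted p = 0.000278 and adjusted p = 0.46, limma-based). Pus7, which encodes a pseudouridine synthase that modifies RNA, stood at 6.70 with E2 and 6.71 with vehicle in DPM, against 5.95 with E2 and 5.76 with vehicle in WT. Its average was 0.85 ± 0.21. In both genes the levels with E2 and with vehicle differed by no more than 0.20 within either genotype. Both DPM levels lay above both WT levels, as for 15.4% of all genes, and the ranking favours such genes. Fbln2, the gene of fibulin 2, an extracellular matrix protein of elastic tissue, stood at 7.90 with E2 and 7.89 with vehicle in DPM, against 7.23 with E2 and 7.28 with vehicle in WT. Its average of 0.64 ± 0.20 went the other way from most matrix genes described below.

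Cap1 had the largest average difference among genes outside the cardiac and airway lists. It encodes a cyclase-associated protein that returns actin monomers to the filament pool. Cap1 stood at 7.54 with E2 and 6.81 with vehicle in DPM, against 5.70 with E2 and 4.07 with vehicle in WT. The average was 2.29 ± 1.02. Both DPM levels lay above both WT levels, as for 15.4% of all genes. Its other probe set stood at 6.10 with E2 and 5.78 with vehicle in DPM, against 4.68 with E2 and 3.25 with vehicle in WT, so both probe sets put DPM above WT. The error was wide, and Cap1 did not reach an unadjusted p of 0.05 by limma. Raly, an RNA-binding protein gene, stood at 7.67 with E2 and 7.66 with vehicle in DPM, against 7.05 with E2 and 6.14 with vehicle in WT (1.07 ± 0.62). Both DPM levels were alike and the WT level with vehicle was lowest. When the groups were centred on their medians, Raly no longer reached 1.5-fold in the E2 groups.

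Among the 16 were also Krt19 and Upk3b of the mesothelial and epithelial list. Krt19 encodes a keratin of simple epithelia and mesothelium, the cell layer that covers the outside of organs. Krt19 stood at 5.09 with E2 and 4.09 with vehicle in DPM, against 3.67 with E2 and 3.25 with vehicle in WT, an average of 1.13 ± 0.40. Upk3b, a uroplakin gene and mesothelial marker, stood at 6.81 with E2 and 5.64 with vehicle in DPM, against 6.22 with E2 and 4.28 with vehicle in WT (0.97 ± 0.80). DPM exceeded WT in each treatment, but Upk3b in WT with E2 lay above DPM with vehicle, and it no longer reached 1.5-fold in both when centred or quantile normalized. Plet1, an epithelial surface protein gene outside that list, stood at 5.90 with E2 and 4.78 with vehicle in DPM, against 4.99 with E2 and 3.93 with vehicle in WT (0.88 ± 0.45). Tpbg, also outside it, which encodes the membrane glycoprotein 5T4, averaged 0.93 ± 0.27, with 5.35 with E2 and 4.72 with vehicle in DPM against 4.21 with E2 and 4.00 with vehicle in WT. Of 11 listed mesothelial and epithelial genes on the array, 4 reached the minimum: Krt8, Krt18, Krt19 and Upk3b, with Krt19 doing so in DPM alone. Their summed linear levels were 445 with E2 and 284 with vehicle in DPM, against 265 with E2 and 251 with vehicle in WT. Within each genotype these sums were higher with E2.

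Of the remaining higher genes, 5 belong to the cardiac or airway lists, which mark tissues next to the aorta. Scgb1a1, the club cell secretory protein gene of the airways, stood at 4.61 with E2 and 6.43 with vehicle in DPM, against 2.31 with E2 and 2.32 with vehicle in WT. Bpifa1, another secreted airway protein gene, stood at 4.23 with E2 and 6.19 with vehicle in DPM, against 2.29 in both WT groups. Scgb3a2 followed with 3.07 with E2 and 5.57 with vehicle in DPM, against 2.29 in both WT groups. These genes were near the lowest level of the array in WT, so the sizes of their differences are not measured there. Each had its highest level in DPM with vehicle, and an SE of at least 1.58. In total 6 of the 14 airway genes on the array lay within 0.05 of the lowest level in both WT groups and not in all 4 groups. Of the 6 that reached the minimum, 5 did so through DPM with vehicle alone. The other one, Cbr2, a carbonyl reductase gene, stood at 9.48 with E2 and 9.98 with vehicle in DPM, against 9.42 with E2 and 9.28 with vehicle in WT, and makes up most of the linear sum of the 6. Summed linear levels of the 5 others were 69.3 with E2 and 294 with vehicle in DPM, against 27.4 with E2 and 26.2 with vehicle in WT.

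Tnnt2, the cardiac troponin T gene, stood at 5.57 with E2 and 7.50 with vehicle in DPM, against 4.84 with E2 and 4.45 with vehicle in WT. Myl4, an atrial myosin light chain gene, stood at 5.29 with E2 and 7.39 with vehicle in DPM, against 4.68 with E2 and 4.84 with vehicle in WT. Both were highest in DPM with vehicle, and the differences in the E2 groups, 0.74 and 0.61, were near the 1.5-fold threshold. Another probe set of Tnnt2 differed by 0.25 with E2 and 2.99 with vehicle. All 10 cardiac and skeletal muscle genes that reached the minimum, of 21 on the array, did so in DPM alone, 8 of them in DPM with vehicle alone. Their summed linear levels were 173 with E2 and 1209 with vehicle in DPM, against 129 with E2 and 146 with vehicle in WT. The median difference of the 10 was 0.49 with E2 and 3.21 with vehicle. The largest averages that failed 1.5-fold in both treatments were Myl7, Nppa, Myh6, Actc1 and Sln, all from this list, between 1.92 and 2.31. Without the members of these lists 11 of the 16 higher genes remain, and the part of neighbouring tissue in those 11 was not tested. Erdr1, the remaining gene of the 16 and known as an erythroid differentiation regulator, stood at 3.70 with E2 and 5.71 with vehicle in DPM, against 2.63 with E2 and 4.44 with vehicle in WT (1.17 ± 1.39).

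The 6 lower genes came from different functions. Dapk2, a calmodulin-regulated protein kinase gene linked to cell death and autophagy, stood at 5.62 with E2 and 4.17 with vehicle in DPM, against 6.60 with E2 and 5.33 with vehicle in WT. Its average was -1.08 ± 0.35. Dapk2 was higher with E2 in both genotypes, on average by 1.36. Its genotype difference and its E2 effect had opposite signs, and DPM with E2 lay above WT with vehicle. Bcam, the Lutheran laminin receptor gene, stood at 6.93 with E2 and 6.29 with vehicle in DPM, against 7.83 with E2 and 7.53 with vehicle in WT (-1.07 ± 0.75). Mbd1, a gene for a protein that binds methylated DNA, stood at 4.82 with E2 and 4.49 with vehicle in DPM, against 5.60 with E2 and 5.64 with vehicle in WT (-0.96 ± 0.24). In Bcam and Mbd1 both DPM levels lay below both WT levels, as for 16.6% of all genes. The wider error was in Bcam.

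Edn2, the gene of the vasoconstrictor peptide endothelin 2, stood at 2.81 with E2 and 3.15 with vehicle in DPM, against 3.50 with E2 and 5.39 with vehicle in WT. It reached the minimum in WT with vehicle alone, and its average was -1.46 ± 0.59. P2ry6, which encodes a receptor for extracellular UDP on smooth muscle and macrophages, stood at 6.04 with E2 and 6.12 with vehicle in DPM, against 6.63 with E2 and 6.71 with vehicle in WT. The difference was -0.59 within each treatment, the most even of the 22 genes, and it no longer reached 1.5-fold in both when the groups were centred or quantile normalized. Just outside the threshold lay Zfp395, Exosc9, Mylk2, Kcnab1, Camkk2, Slc6a6, Far1, Tmem45b and Eln, with averages between -0.76 and -0.47. Acaa1b, ranked further down, also had 1 of the 5 largest lower averages outside 1.5-fold in both (-0.73 ± 0.29). Its difference was -0.20 with E2 and -1.26 with vehicle, and it reached the minimum in WT with vehicle alone. Kcnab1 encodes a potassium channel beta subunit. It stood at 7.02 with E2 and 7.21 with vehicle in DPM, against 7.95 with E2 and 7.73 with vehicle in WT (-0.72 ± 0.18), and its other probe set differed by -1.81 with E2 and -0.46 with vehicle. Eln, the elastin gene, stood at 12.02 with E2 and 12.44 with vehicle in DPM, against 12.49 with E2 and 12.90 with vehicle in WT (-0.47 ± 0.36). Its other probe set differed by -1.77 with E2 and 0.43 with vehicle, so the elastin probe sets disagree. Of the 30 genes ranked 1 to 15 in each direction, 5 had other probe sets at the minimum, and in 4 of the 5 all of these had the same direction in both treatments.

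Most hypoxia and glycolysis genes had lower levels in DPM in both treatments. When oxygen is short, the factor HIF-1 raises genes of glucose uptake, glycolysis, collagen hydroxylation and acid balance. Of 27 listed genes on the array 26 reached the minimum, 24 were lower on average, against 49.9% of all genes, and 21 (80.8%) were lower within both treatments, against 25.4% of all genes. The median average difference was -0.18, against 0.00 for all genes; it was -0.13 with E2, against 0.04, and -0.23 with vehicle, against -0.03. An unadjusted p under 0.05 was found for 8 genes (30.8%, against 2.43% of all genes in that direction), all 8 lower: Car9, P4ha2, Pfkp, Ldha, Slc2a1, Pgam1, Ndrg1 and Pgk1. None had an adjusted p under 0.05. With quantile normalization 6 of the 8 kept that unadjusted p, without P4ha2 and Pgam1. Eno2, the enolase gene described above, is not on the list and was higher in DPM in both treatments, by 0.94 with E2 and 0.73 with vehicle. The members share regulation, and the list was known from earlier work on these samples, so the counts describe it and are not independent evidence.

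**Figure D3:**
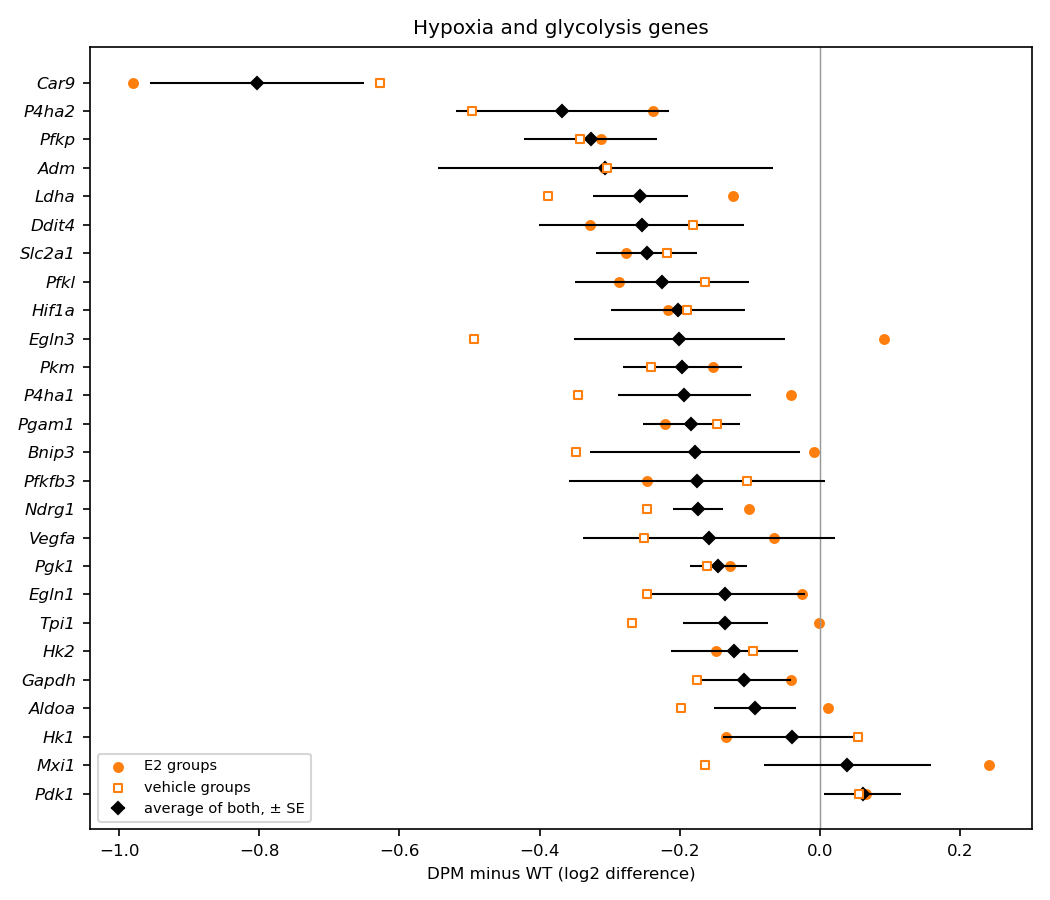
DPM minus WT log2 difference of the 26 hypoxia and glycolysis genes, in the E2 groups (filled circles), in the vehicle groups (open squares) and on average with its SE (diamonds). Averages of 24 genes lie left of 0, between -0.80 for Car9 and -0.04 for Hk1.

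Car9, the membrane carbonic anhydrase gene and a classic HIF-1 target, stood at 5.29 with E2 and 6.16 with vehicle in DPM, against 6.27 with E2 and 6.79 with vehicle in WT. It was lower in DPM by an average of -0.80 ± 0.15 and lower with E2 by an average of -0.70, so the lowest level was in DPM with E2. Slc2a1, the glucose transporter GLUT1 gene, stood at 10.80 with E2 and 10.75 with vehicle in DPM, against 11.08 with E2 and 10.97 with vehicle in WT (-0.25 ± 0.07). Ldha, the lactate dehydrogenase A gene, stood at 11.93 with E2 and 11.88 with vehicle in DPM, against 12.06 with E2 and 12.27 with vehicle in WT (-0.26 ± 0.07). In each of these 3 genes both DPM levels lay below both WT levels, as for 16.6% of all genes. Pfkp, a phosphofructokinase gene, averaged -0.33 ± 0.10, and Pgk1, the phosphoglycerate kinase gene, -0.14 ± 0.04. Ndrg1, a hypoxia-induced stress gene, averaged -0.17 ± 0.04, and P4ha2, a collagen prolyl hydroxylase gene, -0.37 ± 0.15. The factor gene Hif1a itself averaged -0.20 ± 0.10 without reaching that p, and its other probe sets averaged -0.35 ± 0.11 and -0.24 ± 0.12, of which the first reached it. Among the 26, Pdk1 (0.06 ± 0.06) and Mxi1 (0.04 ± 0.12) were higher. For 14 of the genes 23 other probe sets, apart from 2 array control probe sets of Gapdh, reached the minimum. All 23 were lower in DPM on average, 15 of them within both treatments, with a median of -0.24. These 2 control probe sets of Gapdh, the 5′ and the middle one, were lower with E2 and higher with vehicle. The 3′ control of Gapdh was lower in both, by -0.04 with E2 and -0.18 with vehicle.

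Of 36 extracellular matrix genes that reached the minimum, 27 were lower on average, against 49.9% of all genes, and 21 (58.3%) within both treatments, against 25.4% of all genes, with a median of -0.10. Tnc encodes tenascin C, a matrix protein of injured and remodelling vessels. Tnc stood at 7.73 with E2 and 8.16 with vehicle in DPM, against 8.14 with E2 and 8.54 with vehicle in WT, an average of -0.39 ± 0.06 (unadjusted p = 0.000316 and adjusted p = 0.46, limma-based). Its difference was -0.41 with E2 and -0.38 with vehicle, and DPM with vehicle stood at the level of WT with E2. Fn1, the fibronectin gene, stood at 11.64 in both DPM groups, against 11.83 with E2 and 12.08 with vehicle in WT (-0.32 ± 0.08), and its other probe set averaged -0.82. Fn1, Tnc and Fbln2, the last of them higher, were the 3 matrix genes (8.33%) with an unadjusted p under 0.05, a share near the 5.78% of all genes. The median of the 21 smooth muscle contractile genes was -0.06, and 14 of them were lower on average, against 49.9% of all genes. Within both treatments 10 of the 21 were lower, against 25.4% of all genes, and 1 was higher, against 25.9%. Ldb3, a Z-line protein gene, averaged -0.39 ± 0.14, and Actn1, an actinin that anchors actin, averaged -0.36 ± 0.12; both had an unadjusted p under 0.05, and the other 2 probe sets of Actn1 averaged -0.60 and -0.31.

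Esr1, Esr2 and Strn, which bear most directly on the transgene's target, stayed below the minimum, so they are not counted here. In the list of receptor, striatin and kinase signalling components 24 genes reached the minimum. Of these, 11 were higher and 13 lower on average, against 50.1% and 49.9% of all genes, with a median of -0.02. Pik3r1, the regulatory subunit gene of PI3 kinase, stood at 5.05 with E2 and 4.99 with vehicle in DPM, against 5.85 with E2 and 5.21 with vehicle in WT (-0.51 ± 0.14). Its other probe set averaged 0.00. Pik3ca, the catalytic subunit gene, averaged -0.27 ± 0.11, with its other probe set at -0.10. These were the 2 genes (8.33%) of that list with an unadjusted p under 0.05, a share near the 5.78% of all genes. Of 30 estrogen response genes on the array 18 reached the minimum, 9 of them higher and 9 lower on average, near the shares of all genes. Their median was -0.01, and none had an unadjusted p under 0.05 by limma.

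The average hides a dependence on treatment where both differences oppose each other. In the authors' deposited table the interaction, which is the DPM minus WT difference with E2 minus that with vehicle, had an unadjusted limma p under 0.05 for 216 genes (4.19%). Once these p were adjusted here by Benjamini-Hochberg over the 5152 genes, 1 (0.0194%) stayed under 0.05, Siah1a. The average E2 effect, over both genotypes, had an unadjusted p under 0.05 for 397 genes (7.71%), and for 2 of the 22, Dapk2 and Car9. Of the 22 genes, 8 were higher with E2 in both genotypes and 7 were lower in both. The same was not counted over all genes, so these counts describe the 22 alone.

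**Figure D4:**
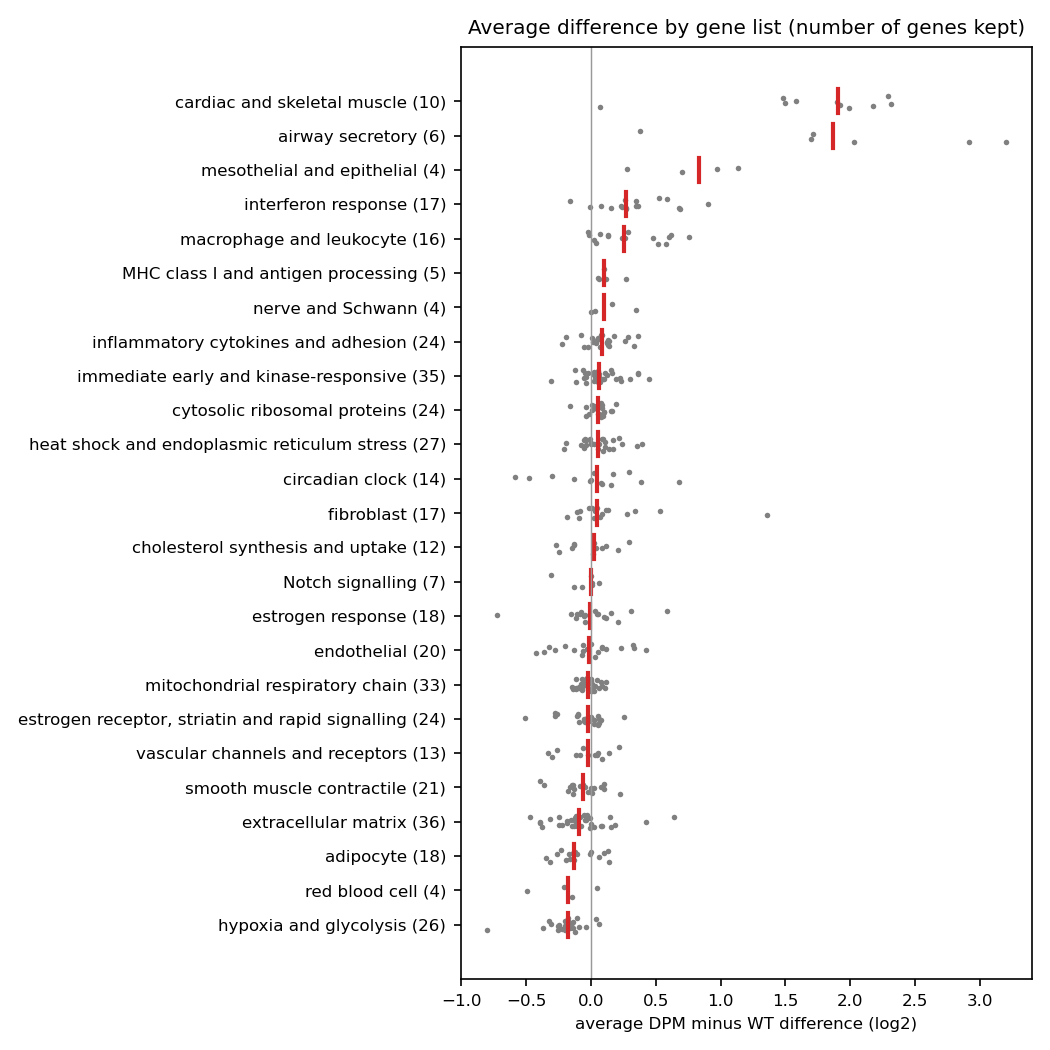
Average DPM minus WT log2 difference of each gene (grey points, spread vertically for legibility) by gene list, with the median of the list as a red bar and the number of genes kept in parentheses. Medians run between 1.91 for the cardiac list and -0.18 for the hypoxia and glycolysis list. All 10 cardiac genes reached the level minimum in DPM alone, so they were kept through the genotype in which they are high.

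Levels of technical controls differed between the groups as well. Of 18 control probe sets for hybridization, 18 were lower in DPM with E2 than in WT with E2 (median -0.34) and 18 were higher in DPM with vehicle than in WT with vehicle (median 0.11), with a median average of -0.10. The 5′ control of Gapdh stood at 10.18 with E2 and 11.39 with vehicle in DPM, against 11.26 with E2 and 10.72 with vehicle in WT. Its 3′ control stood at 12.14 with E2 and 12.04 with vehicle in DPM, against 12.18 with E2 and 12.21 with vehicle in WT. The groups thus differed more at the 5′ end than at the 3′ end of this gene, and the part of RNA quality was not tested. Median levels of all genes kept were 6.89 with E2 and 6.81 with vehicle in DPM, against 6.84 in both WT groups. The part of these shifts in the small list medians was not tested. With the groups centred on their medians, the hypoxia median was -0.19 and the matrix median -0.10.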

How the data were processed

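The authors deposited 1 log2 level per probe set and group for the 4 samples, with log2 differences and unadjusted p-values of the E2 response in WT, that in DPM and their difference. GCRMA and limma are named in the submitters' processing notes, without version or role. Replicates entered as 1 level per group, and per-array values were not analysed here; the number of arrays limits precision.

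Probe sets with 1 gene symbol (20393; 691 had several and 1606 none, from the array's annotation updated by RefSeq, GRCm38.p6) were reduced to the probe set with the highest mean level per symbol, and genes with a level of at least 5 in any group were kept. Each group level carries the same weight up to sign in the average genotype difference and, doubled, in the deposited interaction, so its SE was that of the interaction divided by 2. That SE was worked back from the authors' deposited fold and p-value at 6.441 degrees of freedom, where the errors of the 3 deposited contrasts keep 1 ratio over 6538 probe sets. This assumes that E2 and vehicle levels of 1 genotype are independent, which the files cannot show. The design had planned a test between groups; with 1 level per group this recovered limma error replaced it, and 1 gene had no recoverable error. P-values were adjusted by Benjamini-Hochberg over all 5152 genes (threshold 0.05); they measure the spread between replicates, which may be technical. Differences within a treatment have no error here. The test was tried on simulated data with limma 3.58.1 in R 4.3.3. Simulated arrays were drawn as independent, at 11.7 degrees of freedom, so the trial cannot check the independence assumed here. Other steps used Python 3.11.15, pandas 2.3.3 and scipy 1.17.1.

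Named were the first 15 ranked genes in each direction, up to 4 members of each list at 1.5-fold in both treatments, genes past the adjusted threshold, the 5 largest averages a direction outside 1.5-fold in both, Esr1, Esr2, Strn, Cav1 and Nos3, the genes on either side of the threshold, and neighbours among ranked genes. Other list members, the class II genes at 1.3-fold and genes of small p were chosen after a look at their values. The members and gene lists were chosen with earlier results of these data known. A list is described by its counts and median beside all genes. Centred and quantile-normalized levels, other minimums, other probe sets, each treatment alone and other folds were tried as alternatives.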

Additional observations from a re-analysis of the deposited data

Results flagged for a closer look

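The DPM minus WT difference of Siah1a, a ubiquitin ligase gene, differed between the treatments. In the authors' deposited table this interaction was 0.17. Its deposited limma p, adjusted here by Benjamini-Hochberg over the 5152 genes, gave an adjusted p = 0.0454, and Siah1a was the 1 gene past the threshold of 0.05. It stood at 6.20 with E2 and 6.04 with vehicle in DPM, against 6.04 in both WT groups, so the difference was 0.16 with E2 and 0.00 with vehicle. The deposited E2 response in WT was -8.88e-16, so both WT levels of Siah1a were the same, and the reason was not tested. The SE of its average difference was 0.007, against a median of 0.13 over genes, and its other probe set differed by 0.00 with E2 and -0.21 with vehicle. The average difference of Siah1a was 0.08, with the smallest adjusted p of that comparison (adjusted p = 0.0619, limma-based).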

How the results depend on the processing

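No paired analysis was possible because the replicates of each group were available as 1 level, which for the same reason left no replicate to leave out. The count at an adjusted p under 0.05, 0 as reported, was 1 (Siah1a) when quantile normalized and 1 (Siah1a) with a minimum of 6. The 45 higher and 17 lower genes at 1.5-fold on average became 76 higher with no minimum, 9 lower with a minimum of 6, 52 lower in the E2 groups alone, 94 higher and 73 lower in the vehicle groups alone, 108 higher and 98 lower at 1.3-fold, and 23 higher and 3 lower at 2-fold. The 16 higher and 6 lower genes in both treatments became 26 higher with no minimum, 45 higher and 38 lower at 1.3-fold, and 4 higher and 0 lower at 2-fold. Of the 22, 18 kept 1.5-fold in both when centred (not Myl4, P2ry6, Raly and Upk3b), 19 when quantile normalized, 21 with the median or lowest probe set (not Tnnt2), and 15 had a level of 6, all 15 kept. Medians over lists, alternatives chosen after seeing the data, reversed in the E2 groups alone for interferon genes (-0.19) and mitochondrial respiratory chain genes (0.074), where the cause was not tested. The 298 genes at an unadjusted p under 0.05 numbered 288 when centred, with 154 higher and 134 lower, and 293 when quantile normalized, with 180 higher and 113 lower. The adjusted count was not run for 1 treatment alone or for the median over probe sets, which have no recovered error. Levels near the lowest value of the array limit the sizes of cardiac, airway and Edn2 differences.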

Other observations

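In several gene groups the genotype difference had a different sign in each treatment, and whether the treatments differ there was not tested over the group. All 17 interferon response genes at the minimum were higher in DPM with vehicle (median 0.68), while 11 of the 17 were lower in DPM with E2 (median -0.19). Medians over all genes were -0.03 with vehicle and 0.04 with E2. The share of all genes higher or lower within a treatment was not counted, so such counts describe the lists alone. Of the 17, 3 reached the minimum through DPM with vehicle alone; the other 14 had medians of -0.19 with E2 and 0.70 with vehicle. Ifit1, an antiviral gene, differed by -0.42 with E2 and 2.23 with vehicle. Irgm1, an interferon-induced GTPase gene, was higher in both, by 0.44 with E2 and 0.92 with vehicle, an average of 0.68 ± 0.18 with an unadjusted p under 0.05. Of 14 clock genes 9 were higher and 5 lower on average, against 50.1% and 49.9% of all genes, with a median of 0.05. The clock output genes were unlike in the treatments: Dbp differed by -0.13 with E2 and 1.48 with vehicle, and Nr1d1 by -0.67 with E2 and 0.98 with vehicle. The clock activator Rora was lower in both treatments, by an average of -0.48 ± 0.27. Of 33 respiratory chain genes, 25 were higher in DPM with E2 and 31 lower in DPM with vehicle. Their medians were 0.07 with E2 and -0.11 with vehicle, against 0.04 and -0.03 for all genes. With the groups centred, the medians of these 33 genes were 0.03 with E2 and -0.07 with vehicle. Adipocyte genes, 18 in number, had a median of 0.10 with E2 and -0.36 with vehicle.

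Cytosolic ribosomal protein genes were higher in 20 of 24 cases on average, against 50.1% of all genes, with a median of 0.06 that became 0.05 when centred. In both treatments 15 (62.5%) were higher, against 25.9% of all genes. That count was 13 when centred and 11 when quantile normalized. Of 24 inflammatory genes 19 were higher on average, against 50.1% of all genes. Socs3, a feedback inhibitor of cytokine receptors, averaged 0.28 ± 0.09, and its other probe sets averaged 0.12 and 0.31. Il6 averaged 0.12 ± 0.05, with an unadjusted limma-based p under 0.05 that was lost when quantile normalized. Csf2, the gene of the growth factor GM-CSF, stood at 6.88 with E2 and 7.13 with vehicle in DPM, against 6.49 with E2 and 6.62 with vehicle in WT (0.45 ± 0.08). Of 20 endothelial genes 9 were higher and 11 lower on average, against 50.1% and 49.9% of all genes. Within the treatments they went opposite ways. With E2 15 of the 20 were lower in DPM (median -0.21, against 0.04 for all genes). With vehicle 16 were higher (median 0.16, against -0.03 for all genes). Emcn averaged 0.42 ± 0.14 and Egfl7 -0.32 ± 0.12. Nes, the nestin gene, averaged -0.64 ± 0.10, but its other probe set differed by 0.14 with E2 and 0.21 with vehicle. Ighm, the immunoglobulin heavy chain gene and the 1 lymphocyte gene of 14 on the array that reached the minimum, stood at 7.36 with E2 and 4.02 with vehicle in DPM, against 4.01 with E2 and 3.97 with vehicle in WT.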
